A study of Mus musculus with 6 samples.

Results

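The regions described here are the 492 autosomal H3K9me3 regions that the authors' annotation assigned to a gene whose name starts with Rpl or Rps followed by a digit, out of 58511 regions in the series and 57177 on autosomes. Rpl names stand for proteins of the large ribosomal subunit and Rps names for proteins of the small one, and the S6 kinases, whose names start with Rps6k, were left out. The 492 regions carried 169 names. Of these, 367 regions carried one of 107 names containing -ps, which marks a pseudogene, and 125 carried one of 62 other names. The large subunit accounted for 311 regions and the small subunit for 181.

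H3K9me3, trimethylated lysine 9 of histone H3, was profiled by CUT&Tag, in which an antibody brings a transposase to the mark so that the DNA around it is cut and tagged. The cells were endothelial progenitor cells (EPCs) from mouse bone marrow, taken from C57BL/6J mice bought at 8 weeks of age and selected magnetically for Sca-1 and CD31 after depletion of lineage-positive cells. M-EPCs came from males, F-EPCs from females and OVX-EPCs from females whose ovaries had been removed at around 35 days of age. There were 2 libraries in each group. All groups shared the selection and the expansion in culture in a medium without added estrogen, and the labels call the cells freshly isolated. Nothing in the labels says that the 2 libraries of a group came from separate mice or cultures, so the p-values measure the spread between libraries, which may be technical. In OVX-EPCs 2.40% and 2.43% of region reads lay on the X chromosome, and in M-EPCs 1.20% and 1.20%. The Y chromosome held 0.116% and 0.127% in OVX-EPCs and 0.133% and 0.117% in M-EPCs, so its share did not separate the groups. The mark gives no expression levels, so the sort could not be checked against its markers: 0 regions carried the name of Ly6a, which encodes Sca-1, and 4 carried that of Pecam1, which encodes CD31.

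The libraries held 288353 to 573821 reads in regions. The F-EPC tables hold no reads in the sequence after chr16:30556738-30557137 in replicate 1 and after chr3:110808454-110808853 in replicate 2, with chromosomes in text order. F-EPC values are therefore given only for the 26999 regions on chromosomes 1, 10 to 15 and the first part of 16, called covered here, of which 217 were ribosomal protein regions, 138 of them named after pseudogenes. In those 217 regions the 6 libraries held 1546 to 2460 reads. Over all 492 regions the M-EPC and OVX-EPC libraries held 3836 to 4545 reads. Values are given as normalised reads, that is reads divided by 1 factor per library computed over the regions with reads in all 6 libraries. At a median of 6 to 10 reads per region and library, counting error alone is large for any single region.

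Ribosomal proteins build the machine that translates messenger RNA, and their genes are among the most steadily and strongly transcribed in any cell. Their abundant messages have been copied back into the genome many times by the machinery of retrotransposons, which left many intronless processed pseudogenes scattered over the chromosomes. H3K9me3 marks silent heterochromatin, above all over repeats and in gene-poor stretches, and is not the usual mark of an active promoter. No library made without this antibody was analysed here.

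A few sequences show the kinds of DNA behind the names. The first are start sites of protein-coding ribosomal protein genes with an H3K9me3 region within 1 kb, printed because many such genes start in a pyrimidine tract, by which their translation is controlled. Each run holds 15 bases on either side of a RefSeq start on GRCm38, read on the strand of the gene, and capitals mark the pentamer CTTTC, the pentamer CTTTT, the pentamer CTTCC and the pentamer CCTTT, which can overlap, where they lie within 10 bases of the start.
Rpl15 (chr14:18270972-18271001, minus strand): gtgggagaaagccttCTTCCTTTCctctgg
Rpl27a (chr7:109519180-109519209, plus strand): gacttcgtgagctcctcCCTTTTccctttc
Rps23 (chr13:90923107-90923136, plus strand): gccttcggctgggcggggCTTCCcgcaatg
Rpl38 (chr11:114668565-114668594, plus strand): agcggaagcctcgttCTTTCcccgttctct
Rpl37 (chr15:5116598-5116627, plus strand): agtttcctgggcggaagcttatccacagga
Rps2 (chr17:24720048-24720077, plus strand): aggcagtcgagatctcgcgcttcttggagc
Of 45 RefSeq starts found for 37 of the 51 genes with such a region, 22.2% held one of these letter strings on the gene's strand. The share was 44.8% of 29 starts of 25 other ribosomal protein genes and 9.19% of 31396 starts of all autosomal genes. Rpl37 and Rps2 are shown as starts without a match.

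The second set is the central 300 bases, on the plus strand of GRCm38, of the 3 ribosomal protein regions that passed the test in any comparison. Capitals mark bases that the assembly masks as repeats.
Rps2-ps6 region (chr14:76242152-76242451): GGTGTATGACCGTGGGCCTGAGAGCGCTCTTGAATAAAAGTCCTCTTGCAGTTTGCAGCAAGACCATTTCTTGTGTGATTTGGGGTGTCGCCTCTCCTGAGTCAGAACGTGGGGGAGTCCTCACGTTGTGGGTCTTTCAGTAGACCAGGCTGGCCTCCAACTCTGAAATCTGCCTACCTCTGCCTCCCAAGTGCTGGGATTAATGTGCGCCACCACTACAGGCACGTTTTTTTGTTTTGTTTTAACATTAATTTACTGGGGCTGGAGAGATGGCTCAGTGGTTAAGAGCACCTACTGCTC
Rpl9-ps4 region (chr13:72378570-72378869): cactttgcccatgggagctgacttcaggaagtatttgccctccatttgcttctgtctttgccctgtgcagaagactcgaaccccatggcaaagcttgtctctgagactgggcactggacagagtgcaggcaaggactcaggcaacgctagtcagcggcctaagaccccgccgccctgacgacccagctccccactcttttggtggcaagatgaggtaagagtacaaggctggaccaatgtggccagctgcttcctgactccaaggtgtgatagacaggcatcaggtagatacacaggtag
Rps19-ps5 region (chr15:37858920-37859219): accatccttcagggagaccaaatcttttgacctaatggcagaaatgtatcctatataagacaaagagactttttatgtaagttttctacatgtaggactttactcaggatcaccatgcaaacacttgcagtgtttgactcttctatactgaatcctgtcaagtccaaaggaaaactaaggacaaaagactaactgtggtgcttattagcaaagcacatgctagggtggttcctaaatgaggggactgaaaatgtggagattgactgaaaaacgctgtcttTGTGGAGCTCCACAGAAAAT
The stretch assigned to Rps2-ps6 was masked over all 300 bases, that assigned to Rpl9-ps4 over 0, and that assigned to Rps19-ps5 over 20. Their GC contents were 50.7%, 55.3% and 39.7%. None of the 3 regions overlapped the pseudogene it was named after.

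Most of the regions named after ribosomal protein pseudogenes lay far from them. Of the 492 regions, 58 (11.8%) overlapped the gene they were named after in GENCODE M21, and 33 had at least 0.5 of their length inside it. Among the 367 pseudogene regions 9 (2.45%) overlapped their pseudogene, against 49 of the other 125 (39.2%). The median gap was 28.5 kb for the pseudogene regions and 6.40 kb for the others, and 274 pseudogene regions (74.7%) lay more than 10 kb away. The region assigned to Rpl21-ps12 lay 37.7 Mb from the position GENCODE M21 gives for its identifier and was kept under the authors' name. A further gene of another name lay at 117 of the regions, among them all 55 that the authors placed in introns.

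**Figure D1:**
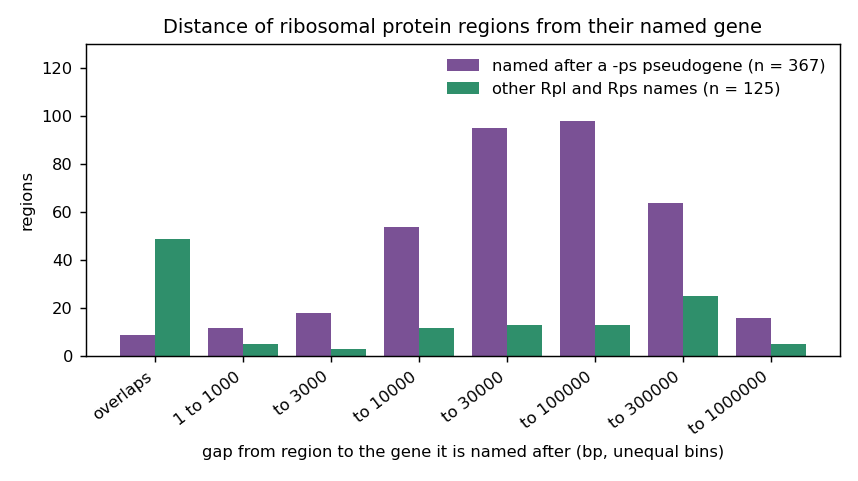
Number of ribosomal protein regions (vertical axis) by the gap in base pairs between the region and the annotated gene it is named after (horizontal axis, unequal bins), for regions named after -ps pseudogenes and for the others. Of the pseudogene regions 9 overlap their pseudogene, while 49 of the other regions overlap their gene, and 1 pseudogene region at 37.7 Mb is left out.

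The GENCODE type of the named gene followed the -ps mark only in part. Of the 125 regions without -ps, 26 carried the name of a processed pseudogene, 25 of them that of Rps3a2, a copy of the small-subunit gene Rps3a. Of the 367 regions with -ps, 15 carried a name that GENCODE types as protein coding.

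By the authors' classes, 334 of the 492 regions (67.9%) were distal intergenic, 70 (14.2%) lay within 1 kb of a start site and 55 (11.2%) in introns. Over all autosomal regions the shares were 54.2%, 15.2% and 21.4%. The classes differed in sequence in the same way as they did genome-wide. The 51 promoter regions of protein-coding members had a median GC content of 60.3% and 5.25% of masked bases, while the 274 distal intergenic pseudogene regions had medians of 47.8% and 36.5%. For all autosomal regions the medians were 60.5% and 5.25% at promoters within 1 kb, and 47.5% and 36.0% in distal intergenic sequence.

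Start sites of the functional genes were covered more often than those of protein-coding genes in general, while few of the pseudogenes had a region. An H3K9me3 region lay within 1 kb of the start of 51 of 78 autosomal protein-coding ribosomal protein genes (65.4%), compared with 6522 of 20807 protein-coding genes (31.3%). Of 249 -ps ribosomal protein pseudogenes, 16 (6.43%) had a region within 1 kb and 8 (3.21%) had one over the body, against 435 (4.73%) and 691 (7.52%) of 9193 processed pseudogenes. The authors discarded reads of low mapping quality. Whether this bears on the counts over pseudogenes was not tested.

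The signal at these promoters was modest in every library. Over all members the median was 6.95 normalised reads in M-EPCs and OVX-EPCs, and over the 51 protein-coding promoters it was 12.2, next to 10.6 for all promoters within 1 kb. The highest included Rpl13a, whose product silences inflammatory messages outside the ribosome, at 33.6 and 30.1 in M-EPCs and 27.7 and 28.3 in OVX-EPCs. Rps19, mutated in Diamond-Blackfan anaemia, had 38.4 and 20.4 in M-EPCs and 20.3 and 18.2 in OVX-EPCs. The M-EPC values of Rps19 spread so far that the groups were not separated by more than that spread. Rps29, Rps21, Rps2, Rps23, Rpl15 and Rpl7 were also among the 10 highest.

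In F-EPCs and OVX-EPCs the promoter regions of functional ribosomal protein genes lay mostly below M-EPCs. Rpl7, a large-subunit protein that binds RNA, had 28.8 and 24.3 normalised reads in M-EPCs, 16.9 and 7.93 in F-EPCs and 19.2 and 21.2 in OVX-EPCs. Rpl37, a large-subunit protein, had 25.2 and 21.4 in M-EPCs, 11.5 and 11.5 in F-EPCs and 14.9 and 12.1 in OVX-EPCs. Rpl15, a core protein of the large subunit, had 27.6 and 27.2 in M-EPCs, 13.0 and 18.5 in F-EPCs and 18.1 and 22.2 in OVX-EPCs. For each of these 3 promoters both M-EPC libraries were above all 4 female libraries, with no overlap. The differences did not pass the test after adjustment: the log2 fold changes of F-EPCs over M-EPCs were -1.12 for Rpl7, -0.96 for Rpl37 and -0.78 for Rpl15 (limma, Benjamini-Hochberg adjusted p = 0.0946, 0.118 and 0.167). A promoter on the other side was that of Rpl10l, with 3.60 and 8.75 in M-EPCs, 14.6 and 12.3 in F-EPCs and 7.47 and 13.1 in OVX-EPCs. Its log2 fold change in F-EPCs was 1.11 ± 0.47 (SE, limma adjusted p = 0.174), without overlap between F-EPCs and M-EPCs. Both M-EPC values were under 10, the least value for a test, so it entered the test only through F-EPCs.

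Outside the covered sequence a promoter of the same kind was found for OVX-EPCs against M-EPCs. Rpl27a, a large-subunit protein, had 18.0 and 16.5 normalised reads in M-EPCs and 6.40 and 10.1 in OVX-EPCs. Its groups did not overlap, and the log2 fold change was -0.96 (limma, adjusted p = 0.263). In covered sequence, on chromosome 10, Rps12 showed the other case. It had 26.4 and 12.6 in M-EPCs, 6.90 and 21.2 in F-EPCs and 16.0 and 16.1 in OVX-EPCs, so that its groups overlapped.

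Counted over all 22 covered protein-coding promoters, without a filter on low values, 15 had a lower mean and 7 a higher mean in F-EPCs than in M-EPCs. The whole class of 3471 covered promoters within 1 kb had 2561 with a lower and 910 with a higher mean. In 9 of the 22 (40.9%) both F-EPC libraries were below both M-EPC libraries, and in 2 (9.09%) both were above. Of all 3471 covered promoters within 1 kb, 38.0% and 9.1% did the same, and of all 26999 covered regions 20.9% were lower and 22.3% higher without overlap. The median log2 ratio of group means was -0.42 for the ribosomal protein promoters and -0.37 for all promoters. The members thus lay close to promoters in general, and away from the whole set of regions.

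For OVX-EPCs against M-EPCs, which share the M-EPC libraries with that comparison, 39 of the 51 promoters had a lower and 12 a higher mean. Among 8690 autosomal promoters 6068 had a lower and 2622 a higher mean. In 17 of the 51 (33.3%) the OVX-EPC libraries were both lower and in 4 (7.84%) both higher, next to 32.0% and 9.7% of the 8690 autosomal promoters and to 20.5% and 20.6% of 57159 autosomal regions with reads. The medians were -0.29 and -0.26. Scaling changed the size of these differences but not the side of the medians of the promoters and the distal members. Weighted trimmed means (TMM) moved the median log2 fold change of all covered regions tested from -0.19 to 0.02 in F-EPCs and that of all autosomal regions tested from -0.17 to -0.01 in OVX-EPCs. With TMM the median of all members tested changed side, from -0.0011 to 0.20 in F-EPCs and from -0.13 to 0.070 in OVX-EPCs. The tested promoters moved from -0.50 to -0.30 and from -0.34 to -0.18, and the tested distal members from 0.22 to 0.42 and from 0.15 to 0.31. All distal intergenic regions tested moved from -0.0083 to 0.21 and from -0.044 to 0.13, so their medians changed side and lay below those of the distal members. Between OVX-EPCs and F-EPCs 4 of the 22 promoters (18.2%) were higher and 2 (9.09%) lower without overlap, against 20.3% and 12% of all promoters and 16.0% and 17.1% of all covered regions.

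**Figure D2:**
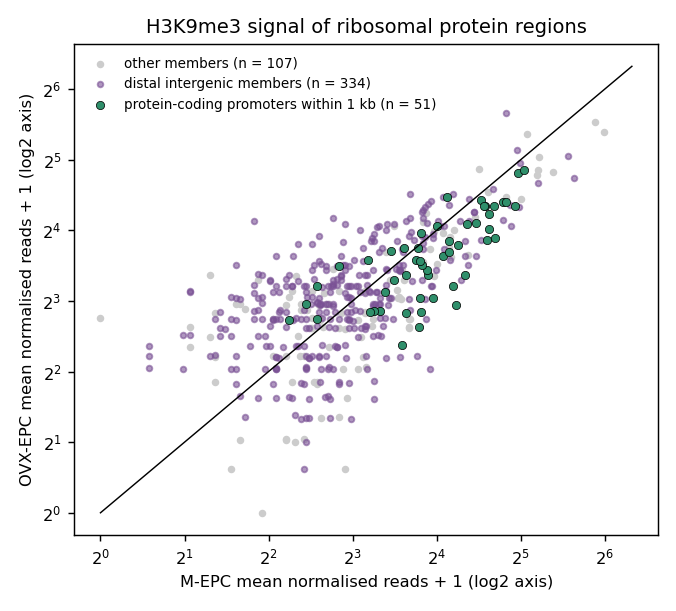
Mean normalised reads plus 1 in M-EPCs (horizontal, log2 axis) and OVX-EPCs (vertical, log2 axis) for the 492 ribosomal protein regions, with 51 protein-coding promoters within 1 kb, 334 distal intergenic regions and 107 others, and a line of equality. On the authors' signal 39 of the promoters had a lower and 12 a higher mean in OVX-EPCs. Of the distal intergenic regions 200 had a higher mean. The points use the factors over all 6 libraries, so counts by the line can differ. Not drawn are the whole classes, in which 6068 of 8690 promoters were lower and 17802 of 30984 distal intergenic regions higher in OVX-EPCs.

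Distal intergenic members lay on the other side of M-EPCs on balance. Of 158 covered ones, 106 had a higher and 52 a lower mean in F-EPCs than in M-EPCs, and 42 (26.6%) were higher and 21 (13.3%) lower without overlap. All 15421 covered distal intergenic regions gave 27.5% and 15.7% without overlap, and 9451 of them had a higher and 5970 a lower mean. For OVX-EPCs against M-EPCs, 200 of 334 had a higher mean, with 97 (29.0%) higher and 49 (14.7%) lower without overlap, next to 25.7% and 15.8% of 30984 autosomal distal intergenic regions. Of those 30984 regions 17802 had a higher and 13182 a lower mean. The median log2 ratios were 0.28 against 0.21 for F-EPCs and 0.18 against 0.14 for OVX-EPCs. Between OVX-EPCs and F-EPCs 24 of 158 (15.2%) were higher and 31 (19.6%) lower without overlap, and the median of -0.04 lay beside -0.06 for all such regions. Among the 55 distal members that passed the filter on low values the median was 0.12, so the sign of this last difference depended on the filter.

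**Figure D3:**
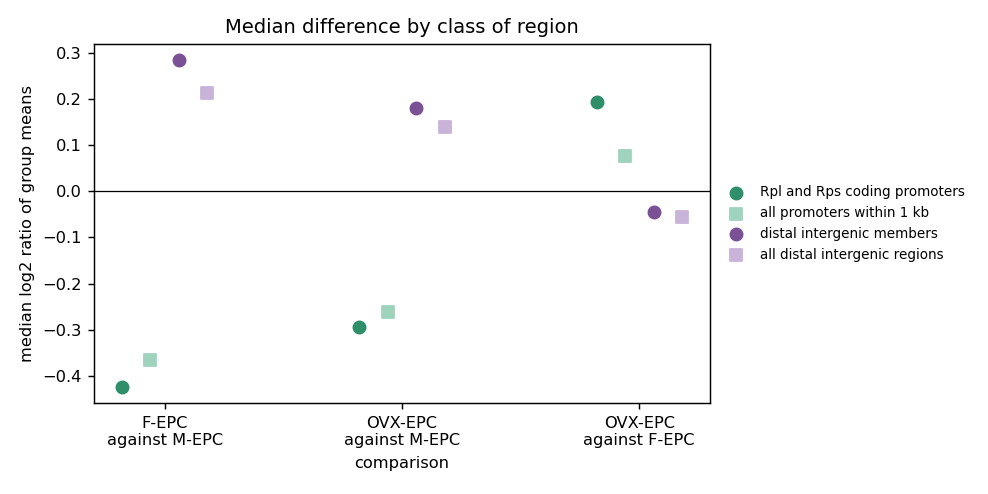
Median log2 ratio of group means of the authors' signal plus 1 (vertical axis) in 3 comparisons (horizontal axis), without a filter on low values, for the protein-coding Rpl and Rps promoters, all promoters within 1 kb, the distal intergenic members and all distal intergenic regions. For F-EPCs against M-EPCs the members and their class lie at -0.42 and -0.37 for promoters and at 0.28 and 0.21 for distal intergenic regions.

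The share of all region reads that lay in the members was split in the same way. In covered regions it was 0.772% and 0.802% in M-EPCs, 0.853% and 0.875% in F-EPCs and 0.824% and 0.862% in OVX-EPCs. The M-EPC libraries were the lowest. The protein-coding promoters alone took 0.143% and 0.127% of the reads in M-EPCs, 0.102% and 0.121% in F-EPCs and 0.124% and 0.118% in OVX-EPCs. The distal intergenic members took 0.477% and 0.497% in M-EPCs, 0.601% and 0.595% in F-EPCs and 0.551% and 0.594% in OVX-EPCs. Both shares separated M-EPCs from the female groups, in opposite directions. For the promoters the gap was small, 0.127% (299 reads) in M-EPC replicate 2 against 0.124% (259 reads) in OVX-EPC replicate 1. The shares of all promoters and of all distal intergenic regions are not given here.

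Many pseudogene names stood for a whole stretch of chromatin rather than for the pseudogene. While 94 names had 1 region, 48 names had 3 or more and together held 344 of the 492 regions. The largest were Rpl21-ps5 with 27 regions over 692.3 kb of chromosome 16, Rps3a2 with 25 over 315.8 kb of chromosome 14, Rpl31-ps18 with 21 over 453.2 kb of chromosome 19, Rpl9-ps4 with 20 over 295.6 kb of chromosome 13 and Rpl10l with 19 over 410.9 kb of chromosome 12. Rpl10l, a retrogene active in male germ cells, is protein coding, and of its 19 regions 1 lay within 1 kb of its start and 18 were distal intergenic. Of the other 4 only Rpl31-ps18 had a region, 1, overlapping the named pseudogene.

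Summed over their regions, 3 of these stretches with values in all groups lay higher in both female groups. Rps3a2, whose regions were 260.0 to 451.1 kb from the nearest protein-coding gene, had 125 and 121 normalised reads in M-EPCs, 192 and 170 in F-EPCs and 177 and 183 in OVX-EPCs. The regions of Rpl9-ps4 were 101.6 to 315.9 kb from the nearest protein-coding gene, the developmental transcription factor gene Irx2 or Irx1. Their sums were 138 and 142 in M-EPCs, 215 and 241 in F-EPCs and 173 and 239 in OVX-EPCs. Rpl10l had 88.8 and 96.2 in M-EPCs, 123 and 145 in F-EPCs and 104 and 124 in OVX-EPCs. In all 3, each female library was above both M-EPC libraries, and 21 of 25, 18 of 20 and 15 of 19 regions had a higher mean in F-EPCs than in M-EPCs. Among all 15421 covered distal intergenic regions 9451 had a higher mean in F-EPCs.

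Further stretches lay higher in the female groups. Rpl21-ps5 had 132 and 134 normalised reads in M-EPCs and 178 and 211 in OVX-EPCs, with a higher mean in 20 of its 27 regions. Among all autosomal distal intergenic regions 17802 of 30984 had a higher mean in OVX-EPCs. Rpl7a-ps5, whose 14 regions all lay inside Cntnap5c, a gene of the neurexin superfamily, had 51.6 and 47.6 in M-EPCs and 72.6 and 93.9 in OVX-EPCs. Of the 48 names, the largest difference between OVX-EPCs and M-EPCs was at Rps24-ps2, 61.7 to 140.6 kb from Hnf4g. Its 4 regions had 6.0 and 12.6 in M-EPCs and 24.5 and 23.2 in OVX-EPCs. The 8 regions of Rpl27a-ps2 lay 107.1 to 239.9 kb from Slitrk1. Their sums were 21.6 and 35 in M-EPCs, 55.2 and 52.0 in F-EPCs and 56.6 and 57.5 in OVX-EPCs.

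Other stretches lay lower. Rps2-ps6, with 16 regions over 138.3 kb of chromosome 14 between Nufip1 and Tsc22d1, had 204 and 199 normalised reads in M-EPCs, 134 and 115 in F-EPCs and 143 and 138 in OVX-EPCs. All 4 female libraries were below both M-EPC libraries, and 13 of the 16 regions had a lower mean in F-EPCs. Of all 15421 covered distal intergenic regions 5970 had a lower mean in F-EPCs. Rps10-ps4, whose 6 regions lay in or near Polr1d, a subunit gene of RNA polymerases I and III, had 163 and 145 in M-EPCs and 100.3 and 123 in OVX-EPCs. Rpl12-ps1, near Tmem131, had 32.4 and 21.4 in M-EPCs, 9.97 and 9.70 in F-EPCs and 11.7 and 11.1 in OVX-EPCs.

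Among functional genes with 3 or more regions, those of Rpl15, Rpl29 and Rps23 had lower sums without overlap, while Rpl10l, given above, had higher ones. Rps23 had 48.0 and 52.5 in M-EPCs, 29.1 and 37.9 in F-EPCs and 47.0 and 37.3 in OVX-EPCs over 4 regions. The gap to OVX-EPCs was small there, 48.0 against 47.0. Rpl7l1 had 25.2 and 18.5 in M-EPCs and 11.7 and 19.2 in OVX-EPCs over 3 regions, with overlap. Rpl29, a heparin-binding large-subunit protein, had 26.4 and 42.8 in M-EPCs and 12.8 and 17.2 in OVX-EPCs over 3 distal regions. Rpl15 had 39.6 and 32.1 in M-EPCs, 23.0 and 27.3 in F-EPCs and 23.5 and 25.2 in OVX-EPCs over 4 regions, 1 of them at its own promoter. Rpl39l, a paralog of Rpl39, had overlapping groups, with 14.4 and 21.4 in M-EPCs and 16.1 to 20.3 in the female libraries.

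In total, 10 of 25 names (40.0%) had summed values higher without overlap in F-EPCs than in M-EPCs and 7 (28.0%) lower, and of 3001 genes with 3 or more covered regions 29.0% were higher and 32.1% lower. In OVX-EPCs against M-EPCs 17 of 48 names (35.4%) were higher and 16 (33.3%) lower, next to 24.7% and 30.3% of 6455 genes. Between OVX-EPCs and F-EPCs 6 of 25 (24.0%) were higher and 5 (20.0%) lower, next to 18.6% and 19.4%. Their direction was the same under 3 scalings for 22 of 25 names in F-EPCs and 39 of 48 in OVX-EPCs, among them every name given above. With these few names the shares of lower values lay near those of all genes, and those of higher values lay above them by few names. All genes are not a like set, since 67.9% of members and 54.2% of all autosomal regions were distal intergenic. Whether this bears on the higher shares was not tested.

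**Figure D4:**
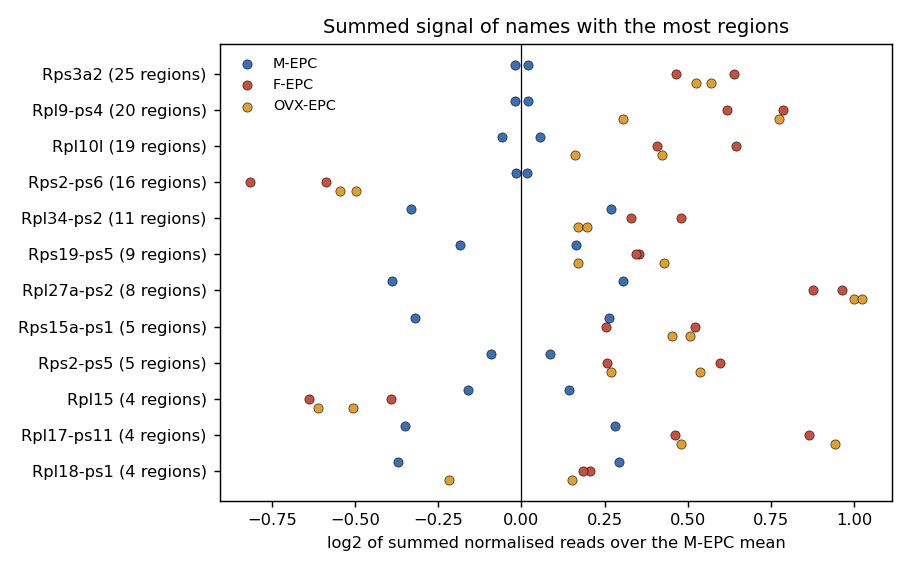
Log2 of the summed normalised reads of each library over the mean of the 2 M-EPC libraries (horizontal axis) for the 12 covered names with the most regions, ties in order of name (vertical axis, number of regions in brackets), 1 point per library. At Rps3a2, Rpl9-ps4, Rpl10l, Rps19-ps5, Rpl27a-ps2, Rps2-ps5 and Rpl17-ps11 the F-EPC and OVX-EPC points lie to the right of both M-EPC points. At Rps19-ps5 OVX-EPC replicate 1 does so only narrowly. At Rps2-ps6 and Rpl15 the female points lie to the left, and at the remaining names they do not all lie on 1 side.

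Single regions were then tested across the whole table. Of the 75 members at 10 or more in at least 2 libraries of F-EPCs and M-EPCs, 1 differed (limma, Benjamini-Hochberg adjusted p under 0.05) and was lower in F-EPCs, where 146 of all 8139 regions tested (1.79%) differed. At an unadjusted p under 0.05 there were 23 members, 11 higher and 12 lower. Of all regions tested 22.8% did so, 6.23% higher and 16.5% lower. With F-EPCs and OVX-EPCs joined against M-EPCs, 3 of 81 members differed, 2 higher and 1 lower, against 3.78% of 8695 regions, and 22 had an unadjusted p under 0.05, 8 higher and 14 lower, against 22.0% of all regions, 7.05% higher and 14.9% lower.

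The region that passed in both was a distal intergenic one assigned to Rps2-ps6 at chr14:76242102-76242501, 4557 bp from the pseudogene. It had 30.01 and 27.2 normalised reads in M-EPCs, 11.5 and 9.70 in F-EPCs and 18.1 and 13.1 in OVX-EPCs, from 25 and 28, 15 and 11, and 17 and 13 reads. Both M-EPC libraries were above all others. It fell in F-EPCs by 1.36 ± 0.33 on the log2 scale (SE, limma adjusted p = 0.0371), and in the female groups together by 1.10 ± 0.31 (limma adjusted p = 0.0250). The F-EPC call was lost with TMM scaling (limma adjusted p = 0.108) and with edgeR's quasi-likelihood test (adjusted p = 0.0615). A second region of the same stretch, at chr14:76317221-76317620, had 22.8 and 19.4 in M-EPCs, 12.3 and 5.29 in F-EPCs and 11.7 and 11.1 in OVX-EPCs, without passing (limma adjusted p = 0.0585 for the female groups together).

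The region assigned to Rps19-ps5 at chr15:37858870-37859269, 8817 bp from the pseudogene and 64683 bp from Rrm2b, had almost no reads in M-EPCs. It held 1 and 4 reads in M-EPCs, 22 and 13 in F-EPCs and 11 and 21 in OVX-EPCs, or 1.20 and 3.89, 16.9 and 11.5, and 11.7 and 21.2 normalised reads. It was higher in the female groups together by 2.27 ± 0.45 on the log2 scale (SE, limma adjusted p = 3.4e-04), and each female library was above both M-EPC libraries. Both M-EPC values were under 10, so this region entered the test only through the female libraries, where it was high. In F-EPCs alone and in OVX-EPCs alone the log2 fold changes were 2.20 and 2.36 (limma adjusted p = 0.0840 and 0.156). With edgeR this was the 1 member that passed in F-EPCs, in place of the Rps2-ps6 region (adjusted p = 0.0369).

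The third was the Rpl9-ps4 region at chr13:72378520-72378919, 75843 bp from the pseudogene, inside the stretch described above. It had 4.80 and 6.80 normalised reads in M-EPCs, 14.6 and 18.5 in F-EPCs and 14.9 and 19.2 in OVX-EPCs. It was higher in the female groups together by 1.39 ± 0.36 on the log2 scale (SE, limma adjusted p = 0.0107), and again the groups did not overlap. With both M-EPC values under 10, it too entered the test only through the female libraries. DESeq2 on the recovered reads called none of the 3 regions. Without F-EPC replicate 2 the Rpl9-ps4 and Rps2-ps6 regions no longer passed, at limma adjusted p = 0.0661 and 0.0707, and without M-EPC replicate 1 they stood at 0.210 and 0.275. Without M-EPC replicate 2, F-EPC replicate 1 or OVX-EPC replicate 2 the Rps2-ps6 region had limma adjusted p of 0.0799, 0.0507 and 0.0661, and its F-EPC call was lost without any 1 of the 4 libraries. The Rps19-ps5 call held without any 1 library, at limma adjusted p of 6.8e-05 to 0.0403, although its log2 fold change without M-EPC replicate 1 was 1.70.

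**Figure D5:**
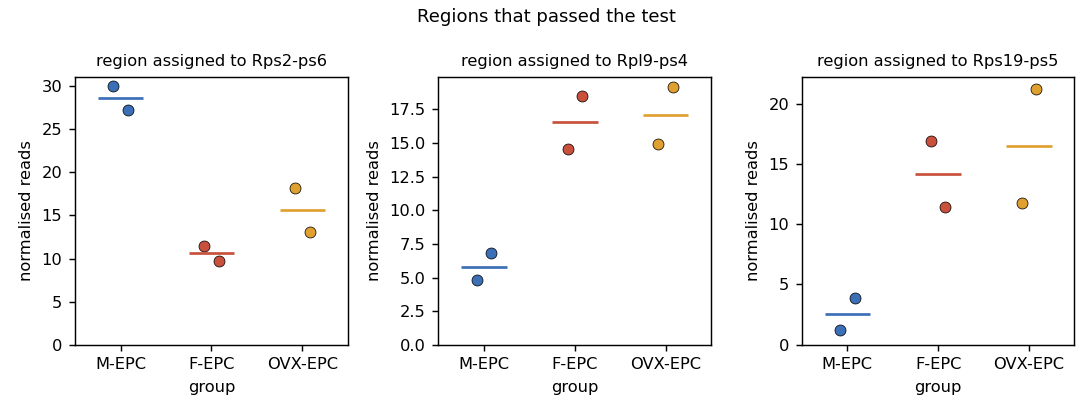
Normalised reads (vertical axes, from 0) of the 3 ribosomal protein regions that passed the test, by group (horizontal axes), with 1 point per library and a line at the mean of the 2. M-EPC points lie above all others at the Rps2-ps6 region and below all others at the Rpl9-ps4 and Rps19-ps5 regions.

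Against M-EPCs, no member passed in OVX-EPCs alone: 0 of 150 tested, where 0.449% of 16931 regions did. At an unadjusted p under 0.05 there were 20 members, 9 higher and 11 lower. Of all regions tested 16.1% did so, 5.07% higher and 11.1% lower. Those regions include the sex chromosomes, which hold no members. On autosomes 16616 regions were tested and 67 passed, all lower. There 716 were higher and 1865 lower at an unadjusted p under 0.05. DESeq2 also called 0 and edgeR 2, the regions of Rps19-ps5 above and of Rpl36a-ps3. The Rpl36a-ps3 region at chr6:136499369-136499768, 10242 bp from its pseudogene and 6399 bp from Atf7ip, had 26.4 and 28.2 normalised reads in M-EPCs and 49.1 and 50.5 in OVX-EPCs. Its log2 fold change was 0.89 ± 0.27 (SE, limma adjusted p = 0.154), and edgeR's quasi-likelihood test gave an adjusted p of 0.0365. The strongest member over these 4 libraries was a Rps10-ps4 region in an intron of Polr1d, at 72.0 and 53.5 in M-EPCs and 35.2 and 46.4 in OVX-EPCs. Another Rps10-ps4 region, 44 bp from Polr1d, had 50.4 and 46.7 in M-EPCs and 21.3 and 30.3 in OVX-EPCs (log2 fold change -0.86, limma adjusted p = 0.170).

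Ovariectomy was addressed by OVX-EPCs against F-EPCs. None of the 83 members tested passed, where 1 of 7897 regions (0.0127%) did, and 4 members had an unadjusted p under 0.05, 1 higher and 3 lower, against 6.22% of all regions, 3.49% higher and 2.72% lower. edgeR and DESeq2 called 0 members. The smallest p-values belonged to a Rpl30-ps6 region, with 25.3 and 28.2 normalised reads in F-EPCs, 17.1 and 12.1 in OVX-EPCs and 18.0 and 13.6 in M-EPCs, and to a Rpl7a-ps3 region, with 13.8 and 12.3, 7.47 and 3.03, and 10.8 and 7.78 (limma adjusted p = 0.768 and 0.769). Among promoters, Rpl7 had the smallest, at a log2 fold change of 0.76 ± 0.36 (SE, limma adjusted p = 0.783).

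Subunit and gene type are given as counts, to be read beside the shares of all regions tested at an unadjusted p under 0.05, which were 6.23% higher and 16.5% lower in F-EPCs and 5.07% higher and 11.1% lower in OVX-EPCs against M-EPCs. The OVX-EPC shares include the sex chromosomes, and of 16616 autosomal regions tested 716 were higher and 1865 lower. Of 134 covered large-subunit regions 40 were tested in F-EPCs against M-EPCs with 7 higher and 7 lower at an unadjusted p under 0.05, and of 83 small-subunit regions 35 were tested with 4 higher and 5 lower. In OVX-EPCs against M-EPCs the large subunit had 6 higher and 4 lower of 85 tested, and the small subunit 3 higher and 7 lower of 65. The names of paralogs and of genes that are no ribosomal part, namely Rpl10l, Rpl22l1, Rpl36al, Rpl39l, Rpl6l, Rpl7l1, Rps19bp1 and Rps27l, held 30 regions, with 0 passing in any comparison after adjustment. At an unadjusted p under 0.05, 1 of them was higher and 1 lower of 6 tested in F-EPCs. Rps27l, a p53 target, had 22.8 and 15.6 normalised reads at its promoter in M-EPCs and 8.54 and 10.1 in OVX-EPCs, without overlap.

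Few regions of related gene lists passed. Their counts at an unadjusted p under 0.05 stand beside the same shares of all regions, 6.23% higher and 16.5% lower in F-EPCs and 5.07% higher and 11.1% lower in OVX-EPCs. Neither the lists nor the OVX-EPC shares were limited to autosomes. Of the mitochondrial ribosomal protein regions (Mrpl and Mrps names) 14 were tested in F-EPCs against M-EPCs, 13 with a log2 fold change below 0 and none passing, 3 at an unadjusted p under 0.05, all lower. Among all 8139 regions tested, 5042 had a log2 fold change below 0. Of the translation factor regions (Eif and Eef names) 18 were tested and 1 passed, lower, with 9 lower at an unadjusted p under 0.05. Of the ribosome biogenesis regions 20 were tested with 0 passing and 6 lower at an unadjusted p under 0.05. Of pseudogene regions outside the ribosomal proteins (-ps names) 96 were tested, 2 passed, both lower, and their median log2 fold change was 0.15, next to 0.11 for the 49 ribosomal protein pseudogene regions tested and -0.19 for all regions. Ribosomal proteins outside the naming rule had 1 region tested, with a log2 fold change of -1.17 that did not pass. In OVX-EPCs against M-EPCs none of these 5 lists had a region that passed, with 33, 44, 29, 223 and 13 tested, and 3, 4, 1, 10 and 1 lower and 0, 0, 1, 27 and 0 higher at an unadjusted p under 0.05.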

How the data were processed

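CUT&Tag for H3K9me3 was read with 25 bp paired-end sequencing in 6 libraries, 2 per group, grouped by the titles GEO gives them. Per the study's methods the reads were trimmed and aligned to mm10 with Bowtie2 (the submitters' processing notes name BWA), duplicates were removed with Picard, reads of mapping quality under 10 were discarded, regions were called with MACS2 and each was assigned to a nearby gene, so a name does not place the mark in that gene. Discarding reads of low mapping quality can lower the signal in near-identical copies, which was not tested. The 3 deposited tables, each holding 2 groups, give a signal per region, made by the authors by dividing read counts by 1 factor per library. All values (100.0%) were whole multiples of that unit, so the counts were recovered. Which counter was used is not given in the sources used here. The deposited log2 fold changes, p-values, adjusted p-values and base means were not used.

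Each comparison was fitted with limma (trend of variance with signal allowed) on log2(signal + 1) of the 2 groups within their own table, for regions at 10 or more in at least 2 libraries, without a block, with Benjamini-Hochberg adjustment over all regions tested and a threshold of 0.05. Fold changes are on that scale and understate changes of low regions. A region under 10 in both libraries of 1 group entered a test only through the other libraries. Both female groups against M-EPCs, and all normalised reads printed, used 1 median-of-ratios factor per library over the 23477 regions with reads in all 6. Counts of means and of libraries without overlap by class of region, and their median log2 ratios, used the authors' signal of each comparison instead. Sums and counts within the regions of 1 name used the normalised reads. F-EPCs were used only in covered sequence, and TMM, library totals, other pseudocounts and filters, edgeR and DESeq2 on the recovered counts, a replicate block and leaving out each library were tried. Tested on simulated data for OVX-EPCs against M-EPCs over 14154 regions, limma recovered 67.95% of 78 regions with 4-fold and 83.33% of 72 with 8-fold changes. Only changed regions that passed the filter were counted, so recovery among all changed regions was lower. The simulated spread between libraries was 1 fixed setting, not estimated from these libraries. Counting error alone bounds the precision of all values. The cells of a group were set aside in duplicates, with no statement of separate mice. An exact permutation test of 2 against 2 libraries cannot go below p = 0.3333, so single sums are given without a test.

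Named regions are those that passed, the smallest p-values per comparison, the 10 highest members and promoters, and names with 3 or more regions; some of these are not reported here. Rpl37, Rpl27a, Rps12, Rps27l and the sequences shown were chosen as examples after their values were seen. The members and gene lists were chosen with earlier results of these data known. Rpl36al and Rpl6l were put with the paralogs when the members were listed. Gaps use GENCODE M21 and sequences come from GRCm38 and RefSeq starts. The versions were R 4.3.3, limma 3.58.1, edgeR 4.0.16, DESeq2 1.42.0, Python 3.11.15, pandas 2.3.3 and numpy 2.4.6.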

Additional observations from a re-analysis of the deposited data

Results flagged for a closer look

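One ribosomal protein region lay on different sides of M-EPCs in the female groups. The distal intergenic region assigned to Rpl7a-ps3 at chr15:36334564-36334963 had 10.8 and 7.78 normalised reads in M-EPCs, 13.8 and 12.3 in F-EPCs and 7.47 and 3.03 in OVX-EPCs. Both F-EPC libraries were above and both OVX-EPC libraries below the M-EPC libraries. The lower side rests on 7.47 in OVX-EPCs against 7.78 in M-EPCs, a gap within counting error. How often other regions show this order was not counted. The test of the difference, OVX-EPCs against F-EPCs, gave a log2 fold change of -1.27 ± 0.57 (SE, limma adjusted p = 0.769) and did not pass.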

How the results depend on the processing

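The counts of members that passed were small and moved with the settings. In F-EPCs against M-EPCs the count was 1, and it was 3 with a pseudocount of 5, 3 with no filter on low values, 0 with a filter at 30, 0 with TMM, 0 with DESeq2 and 0 to 2 when 1 library was left out (2 without M-EPC replicate 2, 0 without M-EPC replicate 1 or F-EPC replicate 2). Taking absent F-EPC reads as 0 gave 55, which follows from the missing sequence, and 31 in OVX-EPCs against F-EPCs in place of 0. In OVX-EPCs against M-EPCs the count was 0, and 1 with no filter, 1 with a filter at 30 and 2 with edgeR. For both female groups it was 3, and 0 with a filter at 30, 0 with DESeq2 and 1 to 4 with 1 library left out (1 without M-EPC replicate 1 or F-EPC replicate 2).

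The median log2 fold change of the members that passed the filter depended on it. In F-EPCs it was -0.0011, and 0.16 with no filter, -0.52 with a filter at 30, 0.20 with TMM, 0.19 with edgeR, 0.18 with DESeq2 and -0.24 to 0.082 with 1 library left out. In OVX-EPCs it was -0.13, and 0.055, -0.33, 0.070, 0.050, 0.057 and -0.20 to -0.041 in the same order. Against F-EPCs, OVX-EPCs had 0.13, and -0.032 with no filter, 0.017 with a filter at 30 and -0.024 to 0.18 with 1 library left out. For both female groups it was 0.02, and 0.18 with no filter, -0.46 with a filter at 30, 0.26 with TMM, 0.16 with totals, 0.16 with edgeR, 0.15 with DESeq2 and -0.13 to 0.093 with 1 library left out. Apart from the absent reads, the cause of these moves was not tested.

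The members' mean share of covered region reads was 0.787% for M-EPCs, 0.864% for F-EPCs and 0.843% for OVX-EPCs. It was 0.510%, 0.575% and 0.552% for pseudogenes only, 0.276%, 0.289% and 0.291% for the others and 0.167%, 0.140% and 0.151% for members overlapping their gene. Over all autosomes it was 0.789% for M-EPCs and 0.829% for OVX-EPCs, with 0.564% and 0.620%, 0.226% and 0.209%, and 0.154% and 0.133% for those subsets. The others include the 25 regions of Rps3a2, a processed pseudogene. In covered sequence these held 104 and 125 of 556 and 647 reads in M-EPCs and 250 and 193 of 808 and 752 in F-EPCs. In OVX-EPCs they held 166 and 181 of 614 and 642. The share of the others without Rps3a2 was not computed, so it is not a share of functional genes. Requiring at least 0.5 of the region inside its gene left 33 of 58.

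The replicate numbers did not pair the libraries, with correlations of deviations of -0.047, -0.013 and -0.021 over 8695 regions. With the replicate number as a block the counts were 1, 0, 0 and 3, as without it, and the medians did not change. Of the values for single regions under the alternatives, 536 kept their direction and side of the threshold, 17 lost and 16 gained it, and 0 reversed. The libraries held a median of 6 to 10 reads per region and there were 2 per group, and how often changes below 4-fold would be called was not tested.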
